A study of Mus musculus with 4 samples.

Results

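The cytosolic ribosomal protein genes were described in 4 RNA-seq libraries of cultured mouse neural progenitors, 1 library in each group. They were taken as the entries whose symbol is *Rpl* or *Rps* with a number, optionally followed by a, x or l, or is *Rplp0* to *Rplp2* or *Rpsa*. This rule found 79 of the 21091 entries, 48 of the large subunit and 31 of the small subunit. Of these, 75 are core ribosomal protein genes and 4 are paralogues of such a gene (*Rpl3l*, *Rpl10l*, *Rpl39l* and *Rps27l*). The rule passed over 5 of the 80 core genes, among them *Gnb2l1* (the gene of RACK1) and *Rpl34*, whose entry is joined with a pseudogene. Averaged over all libraries, 76 of the 79 genes reached 1 FPKM, and those below it were *Rpl3l*, *Rpl10l* and *Rpl39l*. FPKM is a fragment count scaled to transcript length and to the mapped fragments of the library, so levels can be compared between genes.

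Cytosolic ribosomes translate nuclear-encoded mRNA. The small subunit decodes the message, and the large subunit joins amino acids and carries the exit tunnel for the new chain. Each ribosomal protein is needed in about equal number, so cells make these proteins in parallel, and many of their mRNAs start with a C followed by a run of pyrimidines (a terminal oligopyrimidine or TOP motif) through which mTOR and LARP1 set their translation. In the embryonic brain, progenitors that divide often need many ribosomes, and the supply declines as cells differentiate.

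The libraries came from brains of C57BL/6 mice taken on embryonic day 11 (E11) or 14 (E14), and the embryos were either labelled WT or carried a conditional knockout of *Stat3* (*Stat3* cKO, labelled KO). Cre was driven by a rat Nestin promoter and enhancer, which are active in neural progenitors, to remove the exons of *Stat3* that encode the SH2 domain. The study describes the deletion as reached by E14, so it may be incomplete in the E11 *Stat3* cKO library, which bears on every genotype ratio at E11. Isolated progenitors were grown as floating neurospheres with EGF and FGF for 3 days before RNA was taken. The methods of the study name wild-type embryos for RNA-seq, but elsewhere give Nestin-Cre embryos with 1 floxed allele as controls, so whether the WT libraries carried Cre is open. The number of embryos in a library and their sex are not given in the sources used here.

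Across the libraries FPKM summed to between 806587 and 1461770, and between 42.2% and 60.6% of this sum lay in 83 entries for small RNAs such as snoRNAs, which are short and receive very high FPKM. Counts are not part of the files and the depth is unknown, but the steps between low values gave depths of about 1.07 in E11 WT, 0.834 in E11 *Stat3* cKO and 0.936 in E14 WT, relative to E14 *Stat3* cKO. *Stat3* itself, a transcription factor downstream of cytokine receptors, had 7.41 FPKM in E11 WT, 6.74 in E11 *Stat3* cKO, 27.6 in E14 WT and 9.55 in E14 *Stat3* cKO, so the genotypes were apart at E14 and close at E11. This FPKM covers the whole transcript, with the exons that the knockout keeps. The Y-linked *Ddx3y* stood at 25.1 FPKM in E14 *Stat3* cKO, at 0.0569 in E14 WT and at 0 in both E11 libraries. Sex therefore cannot be told apart from genotype at E14, or from stage in *Stat3* cKO. All 7 neural progenitor markers were detected, and their summed level was 1416 and 1612 FPKM at E11 and 7267 and 7913 FPKM at E14 (WT, then *Stat3* cKO). *Fabp7* carried most of that difference, with 516 and 594 FPKM at E11 and 5245 and 5929 FPKM at E14, and 2 of the 7 markers, *Pax6* and *Sox1*, were lower at E14 in both genotypes. The 5 mesenchyme markers summed to 1020 and 920 FPKM at E11 but to 11.8 and 8.32 FPKM at E14, and the part of such cells in the stage differences below was not tested. Fewer cells of a type and less RNA per cell cannot be told apart in such libraries, and with no replicate no difference can be set against a spread, so no p-value is given.

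The start sites of these genes show the motif by which the group is best known. RefSeq start sites on GRCm38.p6 were found for 59 of the 79 genes. A C followed by at least 5 more pyrimidines, on the sense strand and beginning within 10 bases of the annotated start, was present in 32 of the 59 (54.2%), against 21.9% of 27025 genes of all kinds. The base before that C was not checked, so such a run can begin further upstream. The windows below reach from 40 bases before the start to 20 after it. Capitals mark the run where there is one, from its first C inside the searched bases. *Rpl35* and *Rps6* show a run across the start, *Rps27* and *Rps27l* are a pair of paralogues, and *Rpl13a* and *Rps16* are the genes whose levels departed most from the others.
Rpl35, chr2:39005112-39005171, minus strand: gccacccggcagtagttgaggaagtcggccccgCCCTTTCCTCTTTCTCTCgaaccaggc
Rps6, chr4:86857348-86857407, minus strand: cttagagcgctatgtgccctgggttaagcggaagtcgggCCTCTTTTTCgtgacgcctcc
Rps27, chr3:90213629-90213688, minus strand: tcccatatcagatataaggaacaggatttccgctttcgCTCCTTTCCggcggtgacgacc
Rps27l, chr9:66946046-66946105, plus strand: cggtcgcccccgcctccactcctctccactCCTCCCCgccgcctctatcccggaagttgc
Rpl13a, chr7:45128726-45128785, minus strand: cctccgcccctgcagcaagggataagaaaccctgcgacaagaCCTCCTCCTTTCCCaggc
Rps16, chr7:28350649-28350708, plus strand: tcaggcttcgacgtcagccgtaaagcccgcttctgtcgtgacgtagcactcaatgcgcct
The run was 18 bases long in *Rpl35*, 10 in *Rps6*, 9 in *Rps27* and 14 in *Rpl13a*. In *Rps27l* the 7 marked bases began 10 bases before the annotated start, at the edge of the search. The run itself reaches further upstream, since a c and a t precede them. Another annotated start of *Rps27l* had no run, and in *Rps16* no run was found in the searched window. These positions belong to GRCm38.p6 and differ from those listed with the FPKM values, so the builds are kept apart.

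In the 300 bases around the start (250 before, 50 after), CCGGAAG, the core of sites for ETS factors such as GABPA, was found on either strand in 24 of 59 genes (40.7%), against 9.93% of all genes. The GC box GGGCGG was present in 35 (59.3%, against 38.2%), and the E box CACGTG, a MYC type site, in 5 (8.47%, against 8.09%). The STAT motif TTCNNNGAA was found in 3 genes (5.08%, against 9.55%), namely *Rpl35*, *Rplp0* and *Rpl4*. *Rpl35*, at the exit of the tunnel, had 1332 FPKM in E11 WT, 1392 in E11 *Stat3* cKO, 2023 in E14 WT and 1685 in E14 *Stat3* cKO. *Rpl4*, a large subunit protein that lines the exit tunnel, had 799, 740, 829 and 774 FPKM in the same order. The log2 ratio of *Stat3* cKO to WT had a median of -0.014 at E11 and -0.099 at E14 over these 3 genes, and of -0.11 and -0.15 over the 53 other genes with a start site and a ratio. Genes with and without the pyrimidine run were alike in their medians, at -0.10 and -0.11 for the genotypes at E11, and at -0.15 in both classes at E14. The motifs overlap in part, and a match is a match of letters alone.

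Nearly all core genes were expressed at similar and very high levels. Their median was 1177 FPKM in E11 WT, 1118 in E11 *Stat3* cKO, 1534 in E14 WT and 1337 in E14 *Stat3* cKO, and 73 of the 75 had a mean of at least 400 FPKM. Among the 100 highest entries of a library were between 38 and 46 of the genes, and among the 200 highest between 66 and 73. The middle 50 percent of core genes lay between 834 and 1460 FPKM in E11 WT and between 1050 and 2026 in E14 WT. Together the 79 genes held 9.77% of summed FPKM in E11 WT, 10.3% in E11 *Stat3* cKO, 8.37% in E14 WT and 7.63% in E14 *Stat3* cKO. With the small RNA entries left out of the sum, these shares were 20.7%, 17.8%, 18.5% and 19.4%, and their order differed, E11 WT being highest and E11 *Stat3* cKO lowest.

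The highest large subunit genes were *Rpl13a*, *Rpl41* and *Rplp1*. *Rpl41*, which encodes a very small and basic protein, had 2142 FPKM in E11 WT, 2162 in E11 *Stat3* cKO, 3420 in E14 WT and 3323 in E14 *Stat3* cKO. The highest small subunit genes were *Rps12*, with 2248, 2295, 3286 and 2818 FPKM in the same order, *Rps27* and *Rps20*. *Rps20* had 1806, 1675, 2296 and 2245 FPKM. At the other end, *Rps15a* had 163, 150, 180 and 154 FPKM, the lowest core gene in every library, and *Rpl22* had 221, 195, 275 and 260 FPKM. The 4 libraries ranked the genes alike, with Spearman's rho between 0.937 and 0.984 over 76 genes for the 6 pairs of libraries, a description over genes that share each library. Processed pseudogenes of this family are many and nearly identical to their source, so values of single genes can depend on how such reads were assigned, which was not tested.

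**Figure D1:**
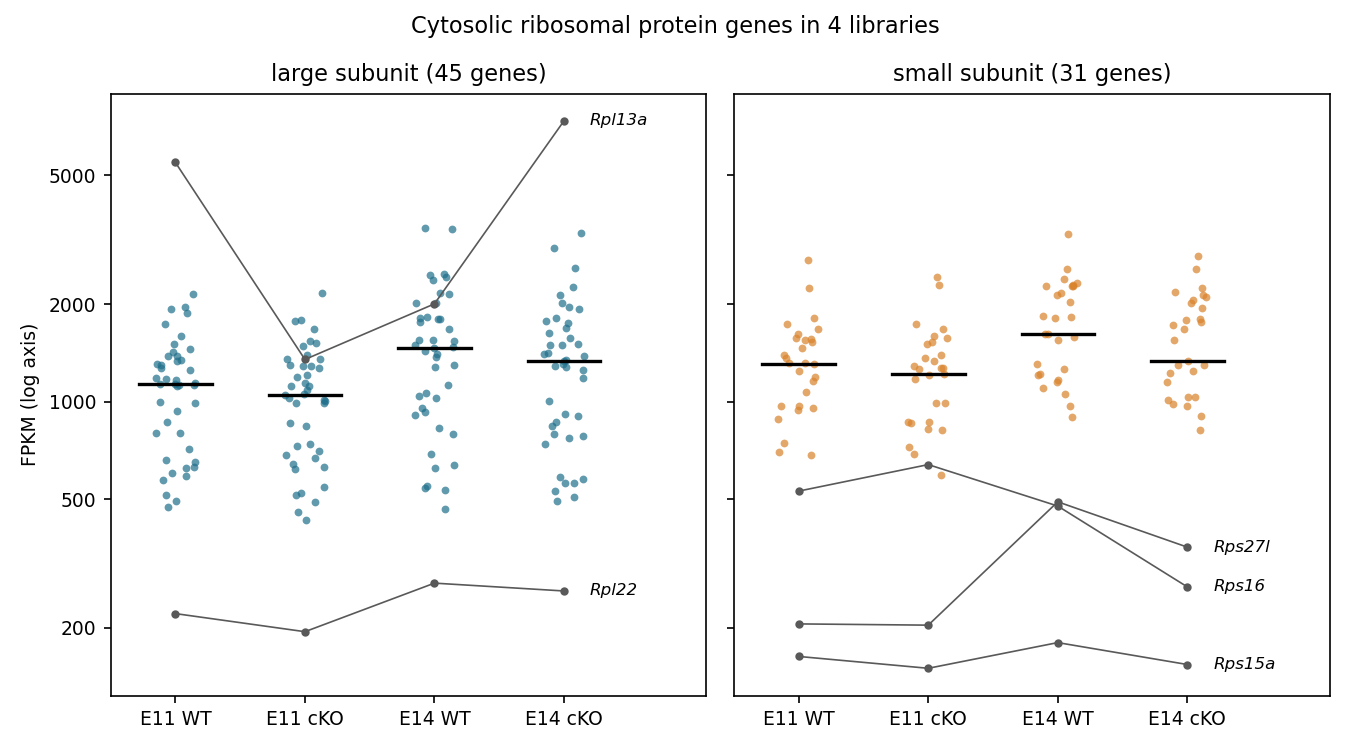
FPKM (log axis) of the 45 large subunit and 31 small subunit genes that averaged 1 FPKM or more, 1 point per gene and library, with a black line at the median and grey lines joining the values of 5 named genes. *Rpl13a* runs from 1349 to 7361 FPKM while *Rps15a* stays between 150 and 180.

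Between stages the genes kept together, and within WT their E14 to E11 ratios lay below those of other abundant genes. On the log2 scale E14 exceeded E11 by a median of 0.36 among WT libraries and of 0.34 among *Stat3* cKO libraries, and 67 and 73 of 76 genes lay above 1 (background 60.5% and 53.3% of all genes). Of other genes that averaged 100 FPKM or more, small RNAs left out, 604 of 698 and 520 of 697 lay above 1. This direction depends on the scale. With the all-gene median set to 0 the medians stayed above 0, at 0.15 and 0.29, but the WT median became -0.0052 with upper-quartile scaling, -0.19 with equal FPKM sums and -0.13 with equal sums without small RNAs, and the *Stat3* cKO median became -0.51 with equal sums. Differences between groups of genes do not depend on the scale. Against the 698 other genes that averaged 100 FPKM or more, small RNAs left out, the ribosomal protein genes were lower by 0.37 on the log2 scale in WT and by 0.028 in *Stat3* cKO. Against the median of all genes they were higher by 0.15 and 0.29. Their interquartile range was 0.29 in WT and 0.20 in *Stat3* cKO, against 1.06 and 0.94 for all genes and 0.75 and 0.73 for the other abundant genes. The range of the RNA polymerase I genes, 0.27 in WT and 0.47 in *Stat3* cKO, was as narrow in WT.

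At least 2-fold higher at E14 in WT was 1 gene (background 14.6%), *Rps27l*, and at least 2-fold lower was 1 (background 12.5%), *Rpl13a*. In *Stat3* cKO 1 gene was 2-fold higher (background 10.1%), *Rpl13a*, and 1 was 2-fold lower (background 11.7%), *Rps16*. By 1.5-fold, 13 genes were higher in WT (background 30.3%) and 9 in *Stat3* cKO (background 21.6%), while no further gene was lower in either (background 18.9% and 20.1%). *Rplp1*, an acidic protein of the stalk that recruits elongation factors, had 1739 and 3427 FPKM at E11 and E14 in WT and 1778 and 2983 FPKM in *Stat3* cKO, log2 ratios of 0.98 and 0.75. *Rps2*, at the mRNA entry side of the small subunit, had 1158 and 2267 FPKM in WT and 1272 and 1951 FPKM in *Stat3* cKO, ratios of 0.97 and 0.62. *Rps21* had 1306 and 2274 FPKM in WT and 1216 and 2131 FPKM in *Stat3* cKO, ratios of 0.80 and 0.81. Each of these genes was higher at E14 than at E11 in both genotypes on the deposited scale, and with equal FPKM sums the ratio in *Stat3* cKO turned to -0.11, -0.24 and -0.048.

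A few genes were lower at E14 than at E11. *Rpl28* had 623 and 534 FPKM in WT and 672 and 559 FPKM in *Stat3* cKO, log2 ratios of -0.22 and -0.27 that kept their sign under all 4 other scalings. *Rps26*, one of the genes mutated in Diamond-Blackfan anaemia, had 1319 and 1258 FPKM in WT and 1335 and 1240 FPKM in *Stat3* cKO, ratios of -0.068 and -0.11. As deposited, 67 genes (88.2%) were higher at E14 in both genotypes, 3 were lower in both, and 6 were lower in WT and higher in *Stat3* cKO. Of all genes, 48.3% were higher at E14 in both genotypes. Over the 76 genes the stage ratios of the genotypes had a Spearman's rho of 0.69, and of 0.75 without *Rpl13a* and *Rps16*, a description over genes that share a library on each axis.

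**Figure D2:**
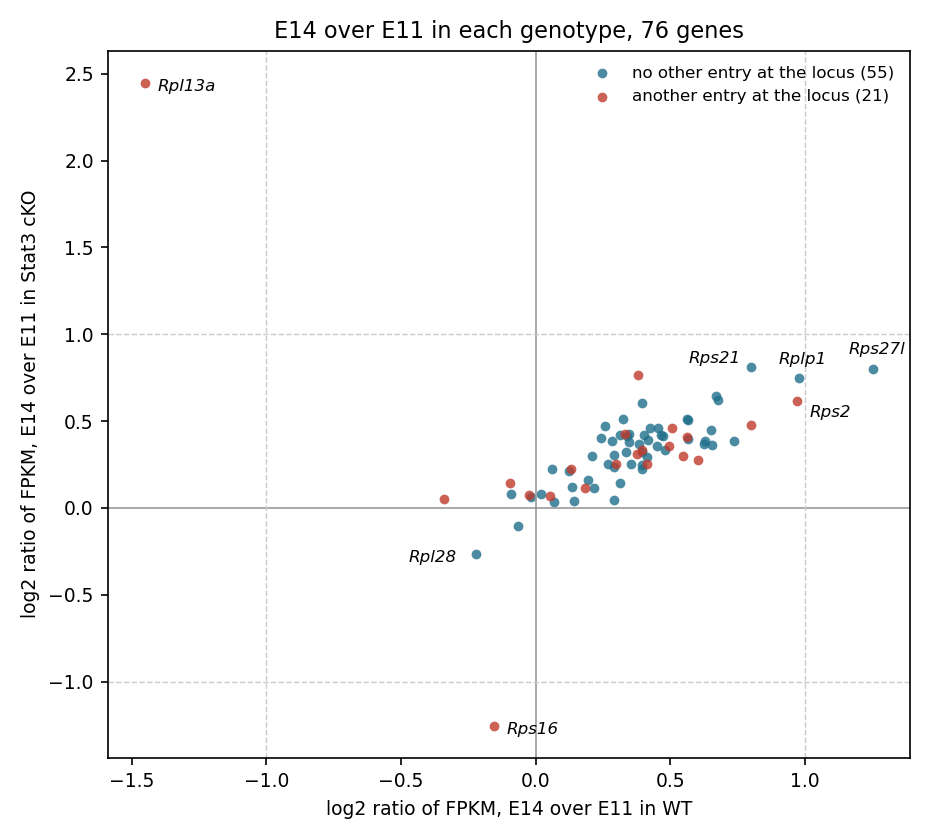
Log2 ratio of FPKM at E14 over E11 in WT (horizontal) and in *Stat3* cKO (vertical) for 76 genes, red where another entry is listed at the same locus and blue where none is; dashed lines mark 2-fold. Most genes lie in a narrow cloud around medians of 0.36 and 0.34, of which 3 of 4 other scalings move the WT median below 0 and equal FPKM sums alone the *Stat3* cKO median, while *Rpl13a* and *Rps16* lie outside it.

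Between genotypes nearly all of these genes stayed close to WT. The median of *Stat3* cKO over WT, as a log2 ratio, was -0.11 at E11 and -0.15 at E14, with 60 and 68 of 76 genes below 1 (background 38.2% and 60.1%), and it turned to 0.13 at E11 with equal FPKM sums and to 0.00098 at E14 with upper-quartile scaling. Of the 76 genes, 73 at E11 and 72 at E14 lay within 0.25 of these medians, and of 12430 genes of all kinds 9002 and 7023 lay within 0.25 of their own medians. The interquartile range was 0.18 at E11 and 0.16 at E14, against 0.28 and 0.42 for all genes. At E11 other lists were as tight, with 0.17 for mitochondrial ribosomal protein genes, for assembly genes and for initiation factors, while at E14 these had 0.24, 0.44 and 0.30. On scales that do not depend on the library, the genes lay below other abundant genes by 0.25 at E11 and above them by 0.034 at E14. They lay below the median of all genes by 0.17 at E11 and by 0.073 at E14. As deposited, 53 genes (69.7%) were below 1 at both stages, against 21.5% of all genes, a count that follows from the high share below 1 at each stage. Gene by gene the stages were not alike, with a Spearman's rho of -0.17 between the genotype ratios at E11 and at E14 over the 76 genes and of -0.10 without *Rpl13a* and *Rps16*, as a description.

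At E11 no gene was higher in *Stat3* cKO by 2-fold or more (background 0.209%) and 1 was 2-fold lower (background 1.12%), *Rpl13a*. At E14 1 gene was 2-fold higher (background 1.85%), again *Rpl13a*, and none was 2-fold lower (background 1.69%). At 1.5-fold no gene was added at E11 (background 2.18% higher and 3.66% lower) or on the higher side at E14 (background 5.82%), and on the lower side at E14 *Rps16* was added (background 7.67%). After these, the lowest ratio at E14 was that of *Rps27l*, at -0.46, followed by *Rpl14* at -0.31. *Rpl14* had 714 and 703 FPKM in WT and *Stat3* cKO at E11 and 1124 and 905 FPKM at E14. At E11 the highest ratios after *Rps16* were those of *Rpl27*, at 0.17 from 573 to 644 FPKM, and of *Rps2*, at 0.14. *Rpl39*, an X-linked gene whose protein lines the exit tunnel, had 1871 FPKM in E11 WT, 1521 in E11 *Stat3* cKO, 2433 in E14 WT and 2580 in E14 *Stat3* cKO, log2 genotype ratios of -0.30 at E11 and 0.09 at E14. With equal FPKM sums its E11 ratio shrank to -0.065.

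**Figure D3:**
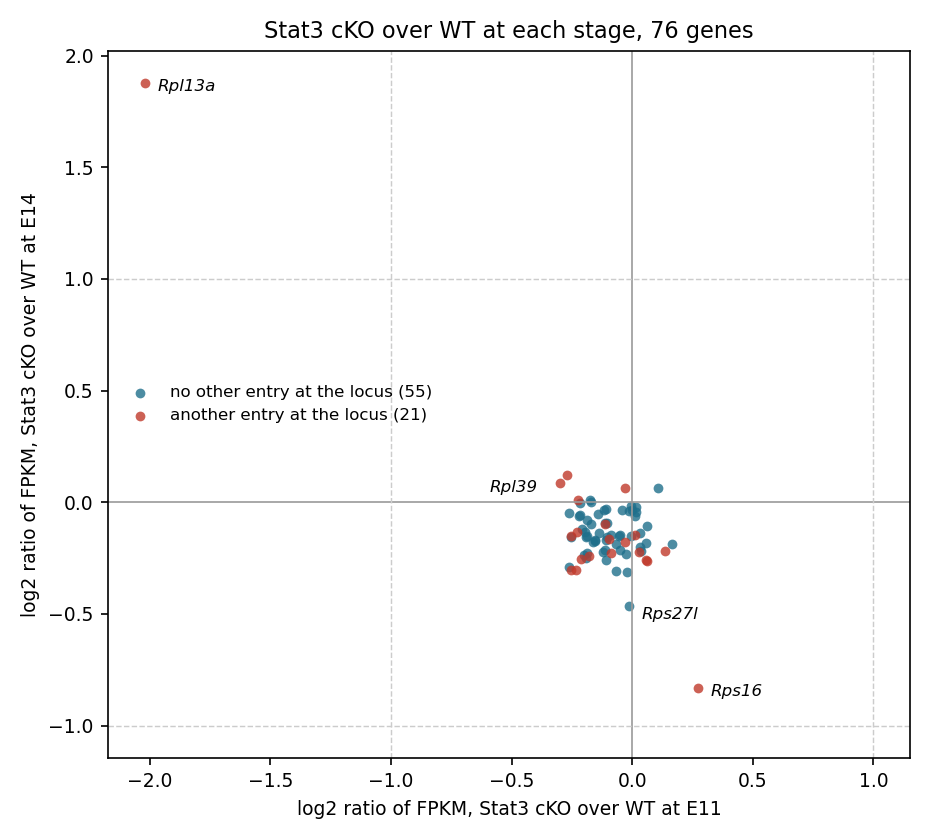
Log2 ratio of FPKM in *Stat3* cKO over WT at E11 (horizontal) and at E14 (vertical) for 76 genes, coloured as in the plot of stage ratios; dashed lines mark 2-fold. The cloud is centred on -0.11 and -0.15, positions that equal sums (E11) or upper-quartile scaling (E14) move above 0, and *Rpl13a* (-2.02 and 1.88) and *Rps16* (0.27 and -0.83) stand apart under every scaling.

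*Rpl13a* and *Rps16* stood apart in opposite ways. *Rpl13a*, a large subunit protein that also acts in a translation-silencing complex, had 5475 FPKM in E11 WT, 1349 in E11 *Stat3* cKO, 2003 in E14 WT and 7361 in E14 *Stat3* cKO. It was high in E11 WT and E14 *Stat3* cKO and within the range of the other genes in the remaining libraries. *Rps16* had 529, 639, 476 and 268 FPKM in that order and was lowest in E14 *Stat3* cKO. Both kept the sign of their genotype ratios under all 4 other scalings. *Rpl13a* carries snoRNAs in its introns, and in the files *Snord35a* and *Snord32a* are listed at its locus (chromosome 7, from 52380932 to 52384115, build not stated). *Snord35a*, a guide for methylation of rRNA, had 1814, 1067, 1223 and 7669 FPKM, and *Snord32a* had 5281 FPKM in E11 WT and 15249 in E14 WT and was listed at 0 in both *Stat3* cKO libraries. At the locus of *Rps16* (chromosome 7, from 29135707 to 29137717), the entry *AF357399* had 367 FPKM in E11 WT and 514 in E14 *Stat3* cKO and was listed at 0 in the other libraries. The part of these entries in the values of their host genes was not tested.

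Other genes of the family also shared their locus. Of the 76 genes, 21 had at least 1 of 24 other entries listed at their locus, most of them snoRNAs. *Snora69*, at *Rpl39*, had 16.3, 0, 177 and 118 FPKM in E11 WT, E11 *Stat3* cKO, E14 WT and E14 *Stat3* cKO. *Snord83b*, at *Rpl3*, ran from a listed 0 in E11 *Stat3* cKO to 248284 FPKM in E14 *Stat3* cKO, while *Rpl3* itself, whose protein reaches towards the peptidyl transferase centre, had 1130, 1057, 1467 and 1308 FPKM. Among the 55 genes with no other entry, none was 1.5-fold apart between the genotypes at either stage (background 2.18% higher and 3.66% lower at E11, 5.82% and 7.67% at E14), and among the 21 genes with another entry only *Rpl13a* and *Rps16* were. The log2 ratios of the 55 genes ran from -0.26 to 0.17 at E11 and from -0.46 to 0.066 at E14. Their medians, -0.11 and -0.15, were those of the whole group.

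Genes of the large and the small subunit moved together. From E11 to E14 the medians were 0.35 for 45 large subunit genes and 0.38 for 31 small subunit genes in WT, and 0.33 and 0.37 in *Stat3* cKO, all on the deposited scale, where equal FPKM sums shift both subunits below 0. The median ratio of *Stat3* cKO to WT was -0.11 for both subunits at E11 and -0.15 and -0.17 at E14. Other scalings shift both subunits by the same amount, so the small gap between them stands on every scale. The core median was higher for the small subunit than for the large in each library, for instance 1312 against 1133 FPKM in E11 WT and 1441 against 1337 FPKM in E14 *Stat3* cKO.

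Genes with known roles of their own mostly lay near the group. *Rpl5* and *Rpl11* encode the proteins that with 5S rRNA form the particle binding MDM2 when ribosome assembly is disturbed. *Rpl5* had 802, 683, 910 and 738 FPKM in E11 WT, E11 *Stat3* cKO, E14 WT and E14 *Stat3* cKO, and *Rpl11* had 1300, 1294, 1814 and 1633 FPKM. Their log2 ratios of *Stat3* cKO to WT were -0.23 and -0.0062 at E11 and -0.30 and -0.15 at E14. With equal FPKM sums those at E11 turned to 0.0032 and 0.23, and with upper-quartile scaling that of *Rpl11* at E14 turned to 0.0012. The remaining stalk genes were *Rplp0*, with 1128, 1118, 1796 and 1749 FPKM, and *Rplp2*, with 1256, 1266, 1673 and 1510 FPKM, and the 3 stalk genes had a median E14 to E11 ratio of 0.67 in WT and 0.65 in *Stat3* cKO, above the group median in both. *Rplp2* itself had 0.41 in WT and 0.25 in *Stat3* cKO, the latter below the group median of 0.34. *Rps6*, the substrate of S6 kinases downstream of mTOR, had 939, 821, 1150 and 968 FPKM. *Rpsa*, the small subunit protein also known as the laminin receptor, had 698, 726, 1212 and 1012 FPKM. *Rps27a*, made as a fusion with ubiquitin, had 957, 818, 897 and 902 FPKM and was among the 9 genes not higher at E14 in WT.

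The X-linked genes were *Rpl10*, *Rpl36a*, *Rpl39* and *Rps4x*. *Rps4x*, which in mouse has no expressed copy on the Y chromosome, had 1675, 1575, 2324 and 2097 FPKM, and *Rpl10* had 1168, 1143, 1278 and 1337 FPKM. Over the 4 genes the median ratio of *Stat3* cKO to WT was -0.060 at E11 and -0.037 at E14, where *Ddx3y* also set the libraries apart. Equal FPKM sums turn the sign of this median at E11, and upper-quartile scaling turns it at E14. The 15 members mutated in Diamond-Blackfan anaemia, a failure of red cell production caused by loss of 1 copy of a ribosomal protein gene, had median ratios of 0.33 and 0.32 for the stages in WT and *Stat3* cKO and of -0.16 and -0.18 for the genotypes at E11 and E14, as deposited. Equal FPKM sums turn the sign of both stage medians and of the genotype median at E11. *Rps19*, the gene most often mutated in that disease, had 968, 856, 1212 and 1222 FPKM.

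The paralogues differed strongly in level. *Rps27l*, a p53 target in other cells, had 206 FPKM in E11 WT, 204 in E11 *Stat3* cKO, 490 in E14 WT and 355 in E14 *Stat3* cKO. *Rps27* had 2734, 2428, 2565 and 2565 FPKM. As deposited, *Rps27l* was higher at E14 in both genotypes while *Rps27* differed little, although with equal FPKM sums the ratio of *Rps27l* in *Stat3* cKO turned to -0.057. Its share in the pair, which no scaling of libraries can change, was 7.0% in E11 WT and 7.75% in E11 *Stat3* cKO, and 16% in E14 WT and 12.2% in E14 *Stat3* cKO. At E11 the shares of the genotypes were close, and at E14 the share was lower in *Stat3* cKO, the log2 ratio of *Rps27l* to *Rps27* being lower by 0.47. The coding sequences of the pair are shown because they show how far the paralogues differ, with the differing bases in capitals. They were read from the GENCODE M21 transcripts on GRCm38, where *Rps27* is coded in 4 exons on the minus strand of chr3:90212725-90213615 and *Rps27l* in 4 exons on the plus strand of chr9:66946175-66949357.
Rps27: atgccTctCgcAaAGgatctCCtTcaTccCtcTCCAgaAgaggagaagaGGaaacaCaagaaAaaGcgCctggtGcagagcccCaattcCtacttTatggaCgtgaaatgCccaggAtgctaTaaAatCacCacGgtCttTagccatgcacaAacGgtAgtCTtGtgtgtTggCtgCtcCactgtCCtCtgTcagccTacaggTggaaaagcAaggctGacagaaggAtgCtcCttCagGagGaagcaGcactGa
Rps27l: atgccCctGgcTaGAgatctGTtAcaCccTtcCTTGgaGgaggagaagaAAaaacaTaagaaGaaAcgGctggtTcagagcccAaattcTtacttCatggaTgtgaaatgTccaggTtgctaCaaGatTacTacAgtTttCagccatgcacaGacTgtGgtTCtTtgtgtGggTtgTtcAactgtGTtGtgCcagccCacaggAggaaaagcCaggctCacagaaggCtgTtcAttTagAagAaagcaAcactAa
They differ at 61 of 255 bases, 53 of them at the last base of a codon, and their longest shared run is 11 bases.

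*Rpl3l*, known from heart and skeletal muscle, *Rpl10l*, known from testis, and *Rpl39l* were near 0. *Rpl3l* had at most 0.0693 FPKM and *Rpl10l* at most 0.052 FPKM in any library. *Rpl39l* had 0.0678 FPKM in E11 WT and 0.249 in E14 WT and was listed at 0 in both *Stat3* cKO libraries. None of them exceeded 0.0102% of its pair. At such values no ratio is given.

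The 3 paralogues outside the naming rule were well expressed. *Rpl22l1*, whose product can replace RPL22, had 239, 247, 528 and 496 FPKM, and its share with *Rpl22* was 51.9% and 56.0% at E11 (WT, *Stat3* cKO) and 65.7% and 65.6% at E14. It was the major member of its pair in all 4 libraries, and its share was higher at E14 in both genotypes. *Rpl36al* held 25.1% of its pair with *Rpl36a* in both E11 libraries, 37.1% in E14 WT and 30.8% in E14 *Stat3* cKO. *Rpl7l1*, which takes part in ribosome assembly, held between 2.98% and 3.66% of its pair with *Rpl7* in all libraries. The coding sequences of *Rpl36a* and *Rpl36al* are 87.9% identical with a shared run of 24 bases, and those of *Rpl22* and *Rpl22l1* 70.2% with a run of 26, and how the authors assigned reads between such genes is not given in the sources used here. *Rps27l* and *Rpl36al* had in common a share at E14 that was higher than at E11 and lower in *Stat3* cKO than in WT.

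**Figure D4:**
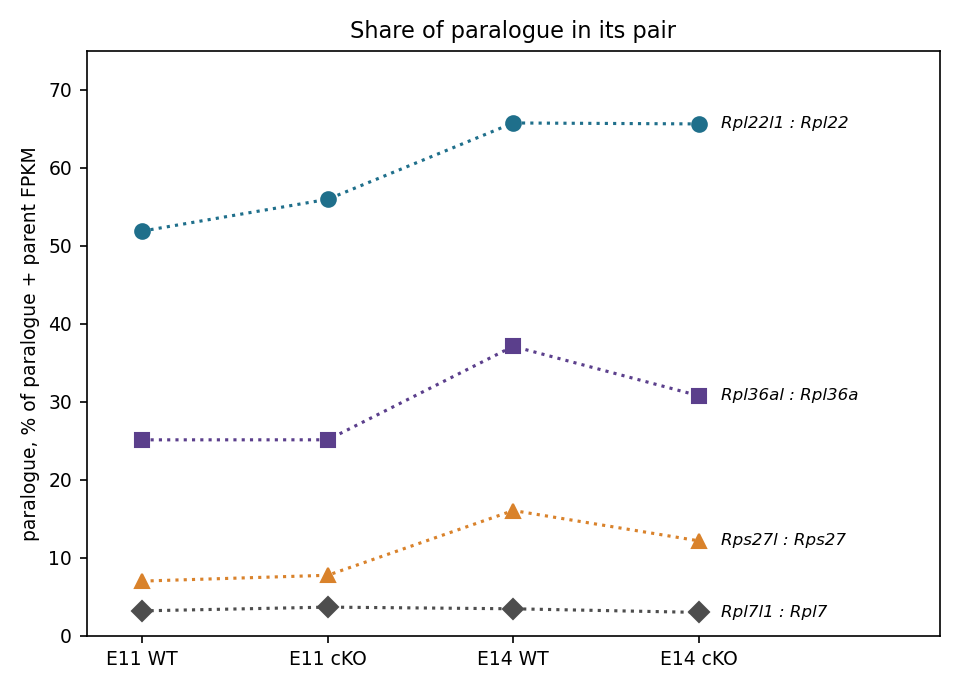
FPKM of a paralogue as a percent of the sum of the paralogue and its parent gene, in the 4 libraries, 1 point per library. The shares of *Rpl22l1*, *Rpl36al* and *Rps27l* are higher in both E14 libraries than in the E11 libraries, and that of *Rpl7l1* lies between 2.98% and 3.66%.

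Genes that build ribosomes parted from the genes of the ribosome at E14. Of 69 assembly and snoRNP genes, which act in the making of ribosomal subunits, all were below 1 in *Stat3* cKO against WT at E14 (background 60.1%). Their median was -0.69 on the log2 scale, and 44 were at least 1.5-fold lower (background 7.67%). At E11 their median was 0.11, with 11 of 68 below 1 (background 38.2%), and both signs held under the 4 other scalings. The median of the ribosomal protein genes thus lay 0.54 above theirs at E14 and 0.22 below theirs at E11. *Gnl3*, or nucleostemin, a nucleolar GTPase of stem cells, had 25.2 FPKM in E11 WT, 26.0 in E11 *Stat3* cKO, 52.1 in E14 WT and 20.7 in E14 *Stat3* cKO, the lowest genotype ratio of the list at E14 (-1.33). *Nol6*, at the other end of the list, had 5.48, 6.54, 6.80 and 6.31 FPKM, a ratio of -0.11. *Nop10*, a part of the snoRNP that makes pseudouridine, had 76.1, 85.8, 282 and 186 FPKM, and *Ncl*, nucleolin, had 33.1, 39.6, 19.8 and 13.6 FPKM. From E11 to E14 the assembly list had a median of 0.61 in WT and of -0.14 in *Stat3* cKO, signs that no other scaling changed, where the ribosomal protein genes had 0.36 and 0.34. E14 WT enters both comparisons, so these values are not independent of each other.

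Other lists of the translation machinery lay between. RNA polymerase I (13 genes), which transcribes rRNA, had a genotype median of 0.07 at E11 and -0.36 at E14, with 12 genes below 1 at E14 (background 60.1%). *Polr1b*, its second largest subunit, had 7.26, 9.45, 19.8 and 11.0 FPKM, with a ratio of -0.84 at E14. Initiation factors (35 genes) had 0.07 and -0.35, from *Eif1a*, with 42.8 FPKM in E14 WT and 19.4 in E14 *Stat3* cKO, to *Eif3f*, with 85.9 and 108 FPKM. Elongation factors (10 genes) had -0.01 and -0.33. *Eef2*, which moves the ribosome along the message, had 1188, 1040, 980 and 1041 FPKM, and *Eef1e1*, a part of the multi-synthetase complex, had 41.3, 42.0, 99.1 and 60.2 FPKM. The E14 medians of these 3 lists stayed below 0 under the 4 other scalings, whereas E11 medians of initiation and elongation factors changed sign under 1 of them.

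The 74 mitochondrial ribosomal protein genes, the counterpart of the group in mitochondria, had median stage ratios of 0.93 in WT and 0.53 in *Stat3* cKO, the latter turning to -0.33 with equal FPKM sums, and lay higher than the cytosolic genes by 0.57 and 0.19. Their genotype median was 0.11 at E11 and -0.27 at E14, where 71 of 74 were below 1 (background 60.1%). *Mrpl12*, a large subunit protein that also binds the mitochondrial RNA polymerase, had 31.9, 44.3, 96.4 and 45.4 FPKM, and *Mrps15* had 24.2, 24.4, 30.9 and 33.6 FPKM. Genes that regulate TOP mRNAs or ribosome synthesis (18 genes) had genotype medians of 0.05 and -0.04, whose signs depended on scaling. Among them *Eif4ebp1*, a repressor of cap-dependent initiation and a target of mTOR, had 117, 65.6, 27.2 and 11.6 FPKM, lower in *Stat3* cKO at both stages. *Myc*, a driver of ribosome synthesis, had 1.37, 0.990, 5.85 and 3.35 FPKM, and *Mycl1* had 39.6, 41.0, 33.4 and 50.7 FPKM. The 7 listed ribosomal protein genes outside the naming rule, paralogues included, had genotype medians of -0.04 and -0.16. They were not uniform, since at E14 the paralogues *Rpl36al* and *Rpl7l1* had log2 ratios of *Stat3* cKO to WT of -0.55 and -0.45. Nearer to the group was *Gnb2l1*, whose protein is a signalling scaffold on the small subunit, with 1421, 1234, 1659 and 1481 FPKM.

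**Figure D5:**
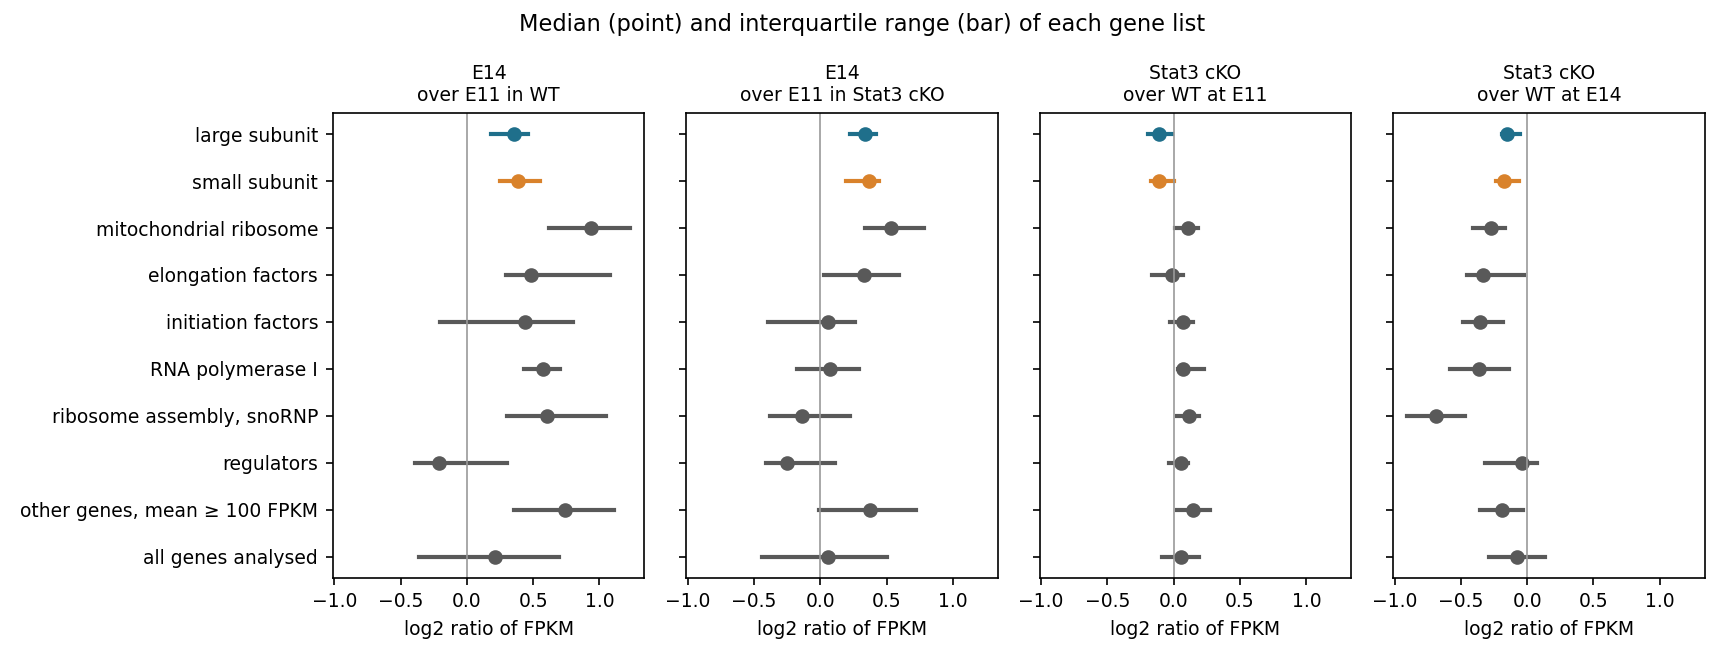
Median (point) and interquartile range (bar) of the log2 ratio of FPKM in 4 comparisons, for the ribosomal protein genes by subunit and for other lists of genes. At E14 the assembly list sits at -0.69, away from the subunits at -0.15 and -0.17, and the distance between lists is the same on every scale although the position of 0 is not.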

How the data were processed

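Total RNA of 4 cultures was sequenced on an Illumina HiSeq instrument. The authors checked reads with FastQC, ran the TopHat-Cufflinks workflow and deposited 1 FPKM value per entry and library. Submitters' processing notes name Bowtie 0.12.2 and the builds mm8 and mm9 without a role, and the annotation is not given in the sources used here. FPKM of very short entries rests on an estimated effective length, and any scaling between libraries is not stated. The number of fragments is unknown, which limits the precision of low values most.

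Values were used as deposited, without a pseudocount. Entries that averaged 1 FPKM or more were analysed (12449 of 21091), a gene at 0 in either library had no ratio, and a gene counted as called at 2-fold. Members and lists were chosen with earlier results of these data known. Lists held 15 Diamond-Blackfan, 7 other ribosomal protein, 74 mitochondrial ribosomal, 10 elongation, 35 initiation, 13 RNA polymerase I, 69 assembly and 18 regulator genes found in the files, and 6 lists of cell type markers. Besides the neural progenitor and mesenchyme lists, summed levels ran from 675 to 998 FPKM for neurons (6 markers), from 1.07 to 24.6 for erythroid cells (4 of 10 markers in the files), from 0.460 to 6.89 for microglia (5 markers, *Aif1* at 0 in E14 WT) and from 0.487 to 4.10 for endothelium (4 markers). Genes were named by rule: in each subunit the 3 highest and 3 lowest means, for each ratio the 3 highest and 3 lowest, calls between genotypes, paralogues, genes with a 0 or a listed role, and extremes of other lists. *Rpl4*, *Rpl35*, *Rps19*, *Gnb2l1* and the snoRNAs were added after their values were seen, and some genes that the rule names are not reported here. With 1 library per group no test was run. Alternatives were pseudocounts of 0.1 and 1, a minimum of 5 FPKM or none, calls at 1.5-fold, 4 other scalings of the libraries, and other choices of members and of entries in the total. Start sites came from RefSeq and coding sequences from GENCODE M21. Python 3.11.15 with numpy 2.4.6, pandas 2.3.3, Biopython 1.88 and matplotlib 3.10.9 was used.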

Additional observations from a re-analysis of the deposited data

Results flagged for a closer look

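Results below lay on opposite sides of WT at the stages, in the only library of each group, and the difference between stages was not tested. *Rps16* had a log2 ratio of *Stat3* cKO to WT of 0.27 at E11 and -0.83 at E14. *Rpl13a* had -2.02 at E11 and 1.88 at E14. Both loci also hold other entries that differ between the libraries, and the part of these entries was not tested. The 69 ribosome assembly and snoRNP genes had a median of 0.11 at E11 and -0.69 at E14. For the 74 genes of the mitochondrial ribosome the median was 0.11 at E11 and -0.27 at E14.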

How the results depend on the processing

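The direction of the group as a whole depends on how libraries are scaled, and its spread and its distance from other lists do not. Relative to the deposited values, the median log2 ratio of all genes (0.21, 0.058, 0.059 and -0.079 for E14 over E11 in WT and in *Stat3* cKO and for *Stat3* cKO over WT at E11 and E14) became -0.16, -0.091, -0.010 and 0.074 with upper-quartile scaling and -0.34, -0.80, 0.29 and -0.15 with equal FPKM sums, and -0.28, -0.25, 0.0037 and 0.056 with equal sums without small RNA entries. Single libraries, an unknown depth and an uneven share of small RNAs set the limit. No paired analysis was possible because each group has 1 library and the labels number no replicates, and for the same reason no library could be left out.

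For E14 over E11 in WT the median of the ribosomal protein genes was 0.15 with the all-gene median set to 0, -0.0052 with upper-quartile scaling, -0.19 with equal sums and -0.13 with equal sums without small RNA entries. In the last 3, 38, 17 and 19 of 76 genes were above 1 (41.6%, 31.9% and 35.0% of all genes) and 0 were 2-fold higher (7.21%, 5.25% and 5.82% of all genes), as also with paralogues left out. In *Stat3* cKO the medians were 0.20 (upper-quartile), -0.51 (equal sums, 1 gene above 1 and 2 genes 2-fold lower, against 12.9% and 38.7% of all genes) and 0.039 (equal sums without small RNAs, 43 above 1, against 35.5%). At E11 the genotype median was 0.13 with equal sums, and 7 (median set to 0), 4 (upper-quartile), 68 (equal sums) and 8 (without small RNAs) genes were above 1, against 50%, 48.1%, 87.1% and 50.7% of all genes. At E14 it was 0.00098 with upper-quartile scaling and -0.017 with equal sums without small RNAs, with 22, 40, 3 and 31 genes above 1 in the same order of scalings, against 50%, 59.8%, 31.9% and 57.6% of all genes. Without a minimum level 2 genes were 2-fold higher at E14 in WT, 2 were lower in *Stat3* cKO at E11 and 1 at E14. The calls that this added came from *Rpl39l* in WT (at most 0.249 FPKM) and *Rpl3l* between the genotypes (at most 0.0693 FPKM). At such values they carry no weight, and no share of all genes without a minimum is given. At 1.5-fold 13 genes were higher at E14 in WT, 9 in *Stat3* cKO, and 1 was lower in *Stat3* cKO at E14. With the 21 genes at shared loci left out, 10 and 3 of 55 genes were above 1 for the genotypes at E11 and E14, against 61.8% and 39.9% of all genes. The calls that *Rpl13a* and *Rps16* had made fell to 0. The share of summed FPKM was 17.1%, 15.5%, 15.1% and 14.8% (E11 WT, E11 *Stat3* cKO, E14 WT, E14 *Stat3* cKO) without the 10 highest other entries and 20.7%, 17.8%, 18.5% and 19.4% without small RNA entries.

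Of the other lists, equal sums turned the stage median in *Stat3* cKO to -0.33 for mitochondrial ribosomal genes, -0.53 for elongation factors, -0.80 for initiation factors and -0.78 for RNA polymerase I, and the stage median in WT to -0.070 for elongation and -0.12 for initiation factors. Without small RNAs those in WT were -0.010 and -0.058, and those in *Stat3* cKO -0.25 for initiation factors and -0.23 for RNA polymerase I, which upper-quartile scaling took to -0.088 and -0.074. At E11 the genotype median turned to 0.22 (elongation, equal sums) and -0.0022 (initiation, upper-quartile). That of the regulators became -0.0045, -0.015 and -0.00084 at E11 and 0.042, 0.12 and 0.098 at E14 with the median set to 0, upper-quartile scaling and equal sums without small RNAs. Equal sums without small RNAs, the removal of genes at shared loci and the rescaling of other lists were added after the data were seen. Of the values under alternatives, 207 for the group stayed as reported, 43 moved and 6 changed sign. For the other lists and genes 31 stayed, 45 moved and 20 changed sign. These tallies cannot be compared, because the other lists were only rescaled. The tally of the group also holds pseudocounts, FPKM minimums, other choices of members and shares of paralogues. All 6 sign changes of the group were in medians under a rescaling of the libraries.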
